A study of Mus musculus with 4 samples.

Results

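The natriuretic peptide system was followed here through 7 genes: the peptides *Nppa*, *Nppb* and *Nppc*, the protease *Corin*, and the receptors *Npr1*, *Npr2* and *Npr3*. They were taken by name from the 24637 genes of the table, and each name was found once. The 4 RNA libraries come from embryonic stem cell (ESC) lines, with 2 WT lines and 2 *Taf4a*-/- lines. The *Taf4a*-/- lines carry, on both chromosomes, a null allele of the TFIID subunit gene *Taf4a* that lacks exons 11 and 12. The WT lines came from blastocysts of the same kind of heterozygous cross on C57Bl6J mice. All lines were expanded on feeders of inactivated embryonic fibroblasts, grown for 5 days as embryoid bodies in medium with 20% serum, then plated on gelatin for 9 days, without sorting, so that each library is a mixture of cell types. The labels call these samples cardiac differentiation at day 9.

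Natriuretic peptides are small hormones made as longer precursors. Atrial natriuretic peptide, from *Nppa*, and B-type natriuretic peptide, from *Nppb*, are made by cardiomyocytes and mark the working muscle of the forming heart chambers, and C-type peptide, from *Nppc*, is made in endothelium, cartilage and other tissues. Corin, a membrane serine protease of cardiomyocytes, cuts the atrial precursor to its active form. Npr1 binds the atrial and B-type peptides, Npr2 binds the C-type peptide, and both carry an intracellular guanylyl cyclase that makes cGMP, whereas Npr3 binds all of the peptides, lacks the cyclase and clears them from the fluid around cells.

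The 3 peptides share a ring closed by a bond between cysteines, which the receptors recognise. It has 17 residues, and its coding sequence, 51 bases in exon 2 of 3, is shown for *Nppb* and *Nppc* because it is the part that makes these genes a family. The codons of the outer cysteines are in capitals, and the sequences are from the NCBIM37 transcripts.

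Nppb: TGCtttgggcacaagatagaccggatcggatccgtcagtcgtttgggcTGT
Nppc: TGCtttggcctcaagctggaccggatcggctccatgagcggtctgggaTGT

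These lie on NCBIM37 at chr4:147360573-147360623 (plus strand) and chr1:88566242-88566292 (minus strand). The longest run of bases shared by whole transcripts was at most 12 among the 3 peptide genes and 18 between *Npr1* and *Npr2*, so no long stretch was the same in 2 of the 7 genes.

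The libraries held 27733034 and 24537026 reads on genes in WT and 24251499 and 21732746 under the *Taf4a*-/- label. The targeted gene was higher, not lower, in the latter (log2 fold change 1.18, limma adjusted p = 0.00569). *Taf4a* had 889 and 678 normalized counts in WT and 1722 and 1799 under the *Taf4a*-/- label, a count over all exons that does not separate the deleted ones, and genotypes are given as labelled. The genotypes were compared with limma on log2(normalized count + 1), on which changes at low counts appear smaller than they are. This was done for the 16926 genes whose mean reached 10 normalized counts, with Benjamini-Hochberg adjustment over all of them. With 2 libraries in each genotype, an exact permutation test of a single value cannot go below p = 0.333, and the limma test borrows the spread shared across genes.

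Of the 7 genes, 6 passed the filter and *Nppc* did not. At an adjusted p-value under 0.05, *Corin*, *Npr3* and *Npr2* were called lower, in this order of their log2 fold changes. None of the 6 was called higher. Over all genes tested, 28.6% were called, 17.3% lower and 11.3% higher. *Nppa* had a more negative log2 fold change than *Npr2* but missed the threshold, and *Nppb* and *Npr1* were not called. Without any test, 4 of the 6 genes were lower and 1 was higher with no overlap between the genotypes, where 71.1% of all genes did not overlap, 36.6% being lower and 34.5% higher.

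**Figure D1:**
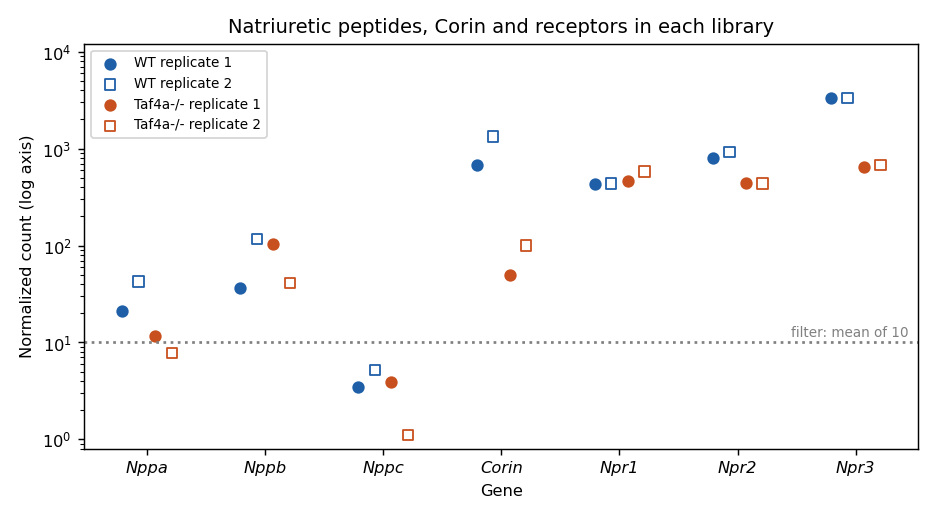
Normalized counts (log axis) of the 7 genes in each of the 4 libraries, with WT in blue, the libraries labelled Taf4a-/- in orange, replicate 1 as filled circles and replicate 2 as open squares. Npr3, Npr2 and Corin are lower in both orange libraries, Nppb values of the genotypes interleave between 36.8 and 117, and all Nppc values lie below the dotted line at the filter of 10.

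*Nppa* (ENSMUSG00000041616) and *Nppb* (ENSMUSG00000029019) are neighbours on chromosome 4 of NCBIM37, both on the plus strand, at 147374831 to 147376188 and 147359897 to 147361314, with 13516 bases between them. *Nppa* was counted at 21.0 (replicate 1) and 42.6 (replicate 2) in WT, against 11.7 (replicate 1) and 7.74 (replicate 2) under the *Taf4a*-/- label. These stand for 24 and 41 reads in WT, and for 12 and 7 reads in the others. The WT values lay above the others, but the exact 95% Poisson interval of WT replicate 1, 15.4 to 35.7 reads, overlapped that of *Taf4a*-/- replicate 1, 6.20 to 21.0 reads. The WT mean was 3.27 times the other, and the log2 fold change was -1.55 (standard error, SE, 0.52, limma adjusted p = 0.0706). Its 95% interval ran from -2.82 to -0.28 before any adjustment for the number of genes. Without WT replicate 1 the log2 fold change was -2.05 and was called (adjusted p = 0.0484 from limma), and without WT replicate 2 it was -1.06 (adjusted p = 0.225). Over the alternatives run, the adjusted p-value for *Nppa* ran from 0.0484 to 0.233.

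A large part of *Nppa* cannot be told from an overlapping gene without the strand of a read, and the library kit did not mark it. Of its 865 exon bases, 532 (61.5%) are also covered by exons of *Gm13054*, a non-coding transcript on the other strand. The shared bases were 0 of 233 in exon 1, 294 of 327 in exon 2 and 238 of 305 in exon 3. Of the genes tested, 1.26% shared more than 50% of their exon bases in this way. *Gm13054* itself had 0 and 1.04 normalized counts in WT and 3.92 and 0 in the others. *Tnnc1*, cardiac troponin C, which shared 99.05% of its exon bases with another gene, was listed at 0.877 and 0 in WT and at 0 in both others. How overlapping reads were treated is not given in the sources used here, and their part in the low count of *Nppa* was not tested.

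*Nppb* showed no such order of the genotypes. It was counted at 36.8 (replicate 1) and 117 (replicate 2) in WT, against 105 (replicate 1) and 40.9 (replicate 2) under the *Taf4a*-/- label. These were 42 and 113 reads, then 107 and 37 reads, so the lines of each genotype differed beyond counting error, and the values of the genotypes interleaved. The log2 fold change was -0.0074 (SE 0.67, limma adjusted p = 0.995), with a 95% interval from -1.62 to 1.61, and its sign turned with the scaling (0.05 with equal totals and 0.34 with quantile normalization). None of the exons of *Nppb* are shared with another gene. The ratio of *Nppb* to *Nppa*, each per kilobase of exon, was 1.94 and 3.05 in WT and 9.88 and 5.85 in the others. The ratio was thus higher in both libraries labelled *Taf4a*-/- than in both WT libraries (exact permutation p = 0.333, two-sided, the smallest this design allows). Its size depends on the exon bases used and rests on 7 to 41 reads of *Nppa*. Over its 333 unshared bases *Nppa* would be at 63.2 and 128 per kilobase in WT, against 47.1 and 150 for *Nppb*.

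*Nppc* (ENSMUSG00000026241, chromosome 1, 88562866 to 88567147, minus strand) was close to absent. It had 3.51 and 5.20 normalized counts in WT and 3.92 and 1.11 in the others, or 4, 5, 4 and 1 reads. The exact 95% Poisson interval was 1.09 to 10.2 reads for WT replicate 1 and 0.0253 to 5.57 reads for *Taf4a*-/- replicate 2, so a difference between the genotypes was not detectable at this depth. It was under the filter and was not tested. When every gene of the table entered the fit, its adjusted p-value from limma was 0.504.

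The 250 bases before the start of *Nppa* and of *Nppb* are shown next to each other, since these neighbours are paralogues and the list of their regulators is described further on. They come from the RefSeq promoter table, built on GRCm38.p6, and each was found once in NCBIM37, at chr4:147374581-147374830 and chr4:147359759-147360008 on the plus strand. Capitals mark matches, looked for on both strands, to a few short motifs of factors that act on heart genes. The GATA factors were searched as TGATAA and as the variant AGATAA. For the T-box family the letters were TCACACC, and for the homeodomain protein Nkx2-5 they were TNAAGTG. The Tead proteins were searched by their motif GGAATG, and the general start signal called the TATA box by TATAAA. Srf was searched by the strict CArG box, CCWWWWWWGG with W for A or T. Only exact matches were counted.

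Nppa: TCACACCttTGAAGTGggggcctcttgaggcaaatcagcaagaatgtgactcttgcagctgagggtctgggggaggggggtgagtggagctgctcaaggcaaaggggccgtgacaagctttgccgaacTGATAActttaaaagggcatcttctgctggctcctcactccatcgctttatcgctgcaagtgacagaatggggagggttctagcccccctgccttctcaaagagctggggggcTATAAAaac
Nppb: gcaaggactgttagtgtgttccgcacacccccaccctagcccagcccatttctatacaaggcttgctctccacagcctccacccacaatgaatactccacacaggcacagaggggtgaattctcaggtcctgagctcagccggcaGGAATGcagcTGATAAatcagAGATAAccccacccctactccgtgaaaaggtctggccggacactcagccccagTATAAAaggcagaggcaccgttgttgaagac

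The *Nppa* window held TCACACC from 250 to 244 bases before the start, TGAAGTG from 241 to 235, TGATAA from 122 to 117, and TATAAA from 9 to 4. In the *Nppb* window, GGAATG lay from 105 to 100 bases before the start, TGATAA from 95 to 90, AGATAA from 84 to 79, and TATAAA from 31 to 26. None of the matches overlapped another. GENCODE M1 starts *Nppb* 112 bases before the RefSeq start, and it has the same start as RefSeq for *Nppa*. For *Npr3* the RefSeq start, and so its window, lies upstream of the annotated one. Among the 32851 windows of the promoter table, cut to the same 250 bases, 7.94% held TGATAA, 9.99% AGATAA, 3.33% TCACACC, 10.1% TNAAGTG, 12.6% GGAATG, 12.4% TATAAA and 1.47% a CArG box. All 7 genes matched the table. *Nppc* had a TATAAA, and none of these letters were found in the windows of *Corin* and the 3 receptors. No exact match to the strict CArG box was found in any of the 7. Sites with a mismatch were not searched, so their absence is not shown.

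*Corin* (ENSMUSG00000005220) spans 204516 bases of chromosome 5, from 72691264 to 72895779 on the minus strand, with 23 exons once overlapping ones are merged. It was counted at 674 (replicate 1) and 1330 (replicate 2) in WT, against 49.9 (replicate 1) and 99.5 (replicate 2) under the *Taf4a*-/- label. Replicate 2 was 1.97 times replicate 1 in WT, and yet the highest of the latter libraries was far below the lowest WT library. Its mean of 1002 ± 464 in WT was 13.4 times the 74.7 ± 35.1 of the others (normalized counts, SD, n = 2 each). The log2 fold change was -3.73 (SE 0.43, limma adjusted p = 0.00371), and 2.04% of the genes tested had a larger fall. With each library left out in turn it ran from -4.22 to -3.24 and stayed under the threshold each time. Its exons are not shared with another gene.

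*Npr3* (ENSMUSG00000022206, chromosome 15, 11769651 to 11835429, minus strand), the clearance receptor, was the most abundant of the 7 genes in WT. It had 3317 and 3326 normalized counts in WT, and 643 and 680 under the *Taf4a*-/- label. Lines of the same genotype were almost equal, and the genotypes were far apart. The WT mean was 5.02 times the other, with a log2 fold change of -2.33 (SE 0.12, limma adjusted p = 0.000556).

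*Npr2* (ENSMUSG00000028469, chromosome 4, 43644807 to 43664116, plus strand), the receptor of the C-type peptide, had 802 and 921 normalized counts in WT, and 443 and 439 in the others. It fell 1.95-fold, with a log2 fold change of -0.96 (SE 0.15, limma adjusted p = 0.00781). Exons of *Gm12473* on the other strand cover 5.70% of its exon bases.

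*Npr1* (ENSMUSG00000027931, chromosome 3, 90254513 to 90269788, minus strand), the receptor of the atrial and B-type peptides, was the receptor not called. It had 431 and 435 normalized counts in WT, and 468 and 583 under the *Taf4a*-/- label. Both of the latter were above both WT values, but the difference was not called, with a log2 fold change of 0.27 (SE 0.17, limma adjusted p = 0.279). Its 95% interval ran from -0.15 to 0.69. The value stayed above 0 under each alternative, from 0.11 to 0.43. Exons of *Gm16048* on the other strand cover 11.7% of its exon bases.

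**Figure D2:**
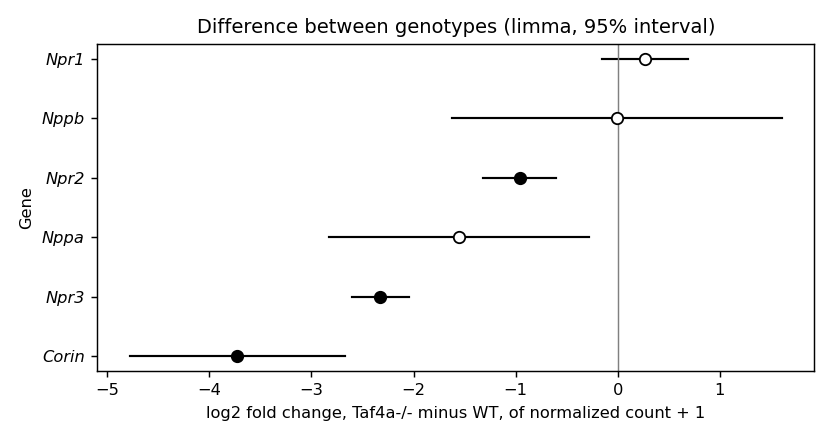
Log2 fold change of the 6 tested genes, libraries labelled Taf4a-/- minus WT, on the scale of normalized count + 1, with limma's 95% interval as a line. Filled points have an adjusted p-value under 0.05: Corin at -3.73, Npr3 at -2.33 and Npr2 at -0.96, while Nppa (-1.55), Nppb and Npr1 are open.

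Levels of different genes were compared as normalized counts per kilobase of exon. In WT the order was *Npr3* (470.0 ± 0.852), *Corin* (199 ± 92.1), *Npr2* (185 ± 17.9), *Nppb* (98.7 ± 73.0), *Npr1* (90.6 ± 0.594), *Nppa* (36.8 ± 17.6) and *Nppc* (4.17 ± 1.14; SD, n = 2 each). In WT the range of *Corin* overlapped those of *Npr2* and *Nppb*, and the range of *Nppb* overlapped those of *Npr1* and *Nppa*, so these pairs could not be ordered. Over the 333 exon bases that it shares with no other gene, *Nppa* would have 95.6 ± 45.8 (SD, n = 2), a range that overlaps those of *Nppb* and *Npr1*. Under the *Taf4a*-/- label, *Npr1* (110 ± 17.0), *Npr2* (94.5 ± 0.663), *Npr3* (93.6 ± 3.71) and *Nppb* (93.3 ± 57.8; SD, n = 2 each) were close to each other. *Corin* (14.8 ± 6.97) and *Nppa* (11.3 ± 3.27) overlapped at a lower level, and *Nppc* was at 2.41 ± 1.90 (SD, n = 2 each).

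The make-up of the receptors was read in each library from these levels. *Npr3* made up 64.2% and 62% of the summed receptor level per kilobase in WT, and 32.1% and 30.8% under the *Taf4a*-/- label. The share of *Npr1* was 12.3% and 12% in WT and 34.5% and 39.0% in the others, and that of *Npr2* was 23.5% and 26.0% against 33.5% and 30.1%. The clearance receptor stood at 5.21 and 5.17 times *Npr1* in WT, and at 0.930 and 0.790 times *Npr1* in the others. The summed level of the receptors was 731 and 759 in WT and 284 and 312 in the others, and that of *Npr1* and *Npr2* alone was 262 and 288 against 193 and 216. None of these values overlapped between the genotypes, and for each the exact permutation test gave p = 0.333 (two-sided), the smallest it can give here. These are RNA levels of a mixed culture, in which fewer cells of a type and less RNA per cell cannot be told apart.

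**Figure D3:**
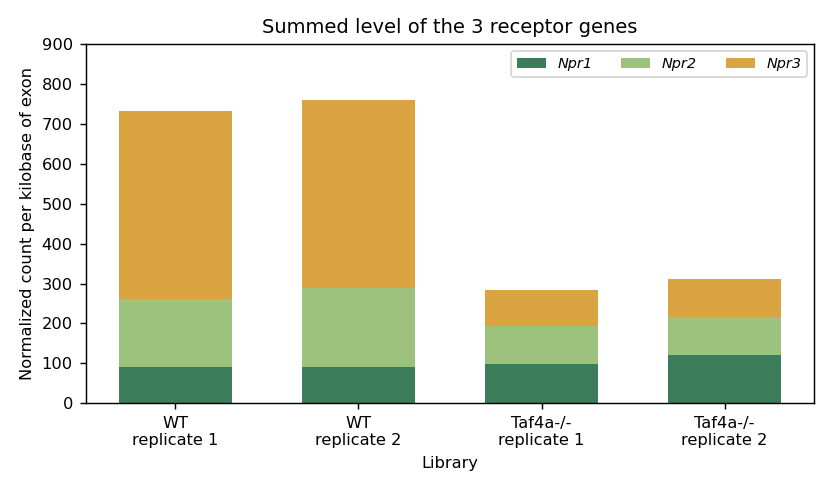
Normalized counts per kilobase of exon of Npr1, Npr2 and Npr3, stacked for each of the 4 libraries. The stacks reach 731 and 759 in WT and 284 and 312 in the libraries labelled Taf4a-/-, with a tall Npr3 part in WT and parts of similar height in the others.

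The cell types that these cultures could hold were read by lists of markers. Genes counted as lower or higher are those called, as were 17.3% and 11.3% of all genes tested. All 14 tested cardiomyocyte genes had fallen under the *Taf4a*-/- label, and the summed level of the list was 36998 and 34691 in WT and 4615 and 3999 in the others. *Tnnc1*, a 15th gene of this list that was under the filter, was at 0 in both of the latter. It was also nearly empty in WT, at 0.877 and 0, so it shows no fall. For fibroblasts 9 of 10 genes were lower, with sums of 429347 and 596731 against 48136 and 60343, and *Dpt* was at 0 in the latter. The endothelial and endocardial list covers cells where *Npr3* is also found in the embryonic heart. It had 2 of 12 genes lower, near the share over all genes. Its sums were 17591 and 15730 against 11808 and 14638, with no marker at 0. The called genes were *Vwf* and *Nfatc1* (log2 fold changes -0.92 and -0.59). *Emcn*, *Tek* and *Eng* of this list were lower without overlap but not called (log2 fold changes -1.62, -1.25 and -0.80). Of all genes tested, 36.6% were lower without overlap. *Pecam1* and *Tie1* had overlapping values and log2 fold changes of 0.09 and 0.19. Values also overlapped for *Cdh5*, *Esam*, *Kdr*, *Flt1* and *Erg* (log2 fold changes -0.11, -0.20, -0.33, -0.36 and -0.42). For smooth muscle 4 of 8 were lower, with sums of 31905 and 58096 against 22008 and 21760, and for chondrocytes, a cell type with *Npr2*, 4 of 10 were lower and 1 higher, with sums of 11332 and 10447 against 4748 and 4396. The higher chondrocyte gene was *Acan* (log2 fold change 2.66). The lower ones were *Col9a2*, *Hapln1*, *Col11a1* and *Col2a1* (-1.99, -1.65, -1.54 and -1.51), so the markers of this list did not all move with its sum. Neither the smooth muscle nor the chondrocyte list had a marker at 0.

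All 11 macrophage genes were lower, with sums of 11888 and 14634 against 268 and 407 and *C1qa* at 0 under the *Taf4a*-/- label. All 12 genes of visceral endoderm and liver were lower, with sums of 88642 and 69794 against 1277 and 956 and *Alb* and *Serpina1a* at 0. Pluripotent cell genes were higher for 8 of 10, with sums of 5468 and 2828 against 15894 and 18178, and 1 of 7 neural genes was lower, with sums of 8078 and 12716 against 8098 and 7021. The part of each of these cell types in the falls of *Corin*, *Npr3* and *Npr2* was not tested.

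The other genes of the pathway were followed with lists chosen for their roles. Of 8 tested genes that cut precursors or break down peptides, 2 were lower and 3 higher, where 17.3% and 11.3% of all genes were. *Furin*, the convertase that cuts the B-type and C-type precursors, fell from 7639 and 6524 normalized counts in WT to 4792 and 4762, or -0.56 on the log2 scale (limma adjusted p = 0.0237). *Dpp4*, a peptidase that trims the ends of peptides, fell by 1.92 on the log2 scale. *Mme* (neprilysin) and *Ide*, enzymes that break natriuretic peptides down, rose with log2 fold changes of 0.57 and 0.40 (adjusted p = 0.0476 and 0.0431 from limma), and *Pcsk5*, another convertase, rose with 0.86. *Pcsk6*, which activates Corin, was not called, with 379 and 435 normalized counts in WT and 349 and 435 in the others. The median was 0.19 here and -0.01 for all genes tested (log2 fold changes).

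Of 18 tested genes for the formation, breakdown and export of cGMP and the response to it, 8 were lower and 0 higher. The shares over all genes tested were 17.3% lower and 11.3% higher. The median of the list was -0.80 (log2 fold change). The largest falls were in *Pde1a*, a phosphodiesterase, at -5.86, in *Mrvi1*, a target of cGMP-dependent kinase, at -2.63, and in *Gucy1b3* and *Gucy1a3*, the subunits of the soluble guanylyl cyclase that answers to nitric oxide, at -2.26 and -2.19. *Pde1a* had 614 and 886 normalized counts in WT, and 17.6 and 7.74 under the *Taf4a*-/- label. *Prkg1*, the main cGMP-dependent kinase of smooth muscle, had 530 and 405 against 256 and 315 and missed the threshold (log2 fold change -0.70, adjusted p = 0.0520 from limma).

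Of 20 genes for factors that activate or repress *Nppa* and *Nppb*, 9 were lower and 3 higher, and the median was -0.38. The shares over all genes tested were 17.3% lower and 11.3% higher, so the share that rose was near that of all genes. *Nkx2-5* is also on the cardiomyocyte list. The T-box factor *Tbx5*, *Irx4*, *Nkx2-5* and *Myocd*, a coactivator of Srf, fell the most, with log2 fold changes of -2.87, -2.64, -2.64 and -1.74. The genes that rose were *Tbx3*, a repressor of chamber genes, at 0.84, *Jarid2* at 0.76, and *Rest*, a repressor that binds near *Nppa*, at 0.53. *Gata4*, which activates both peptide genes, fell by 0.63 on the log2 scale, while *Tead1* (log2 fold change 0.01) and *Srf* (-0.34) were not called.

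A list of 11 tested genes of chamber muscle had 7 lower and 0 higher, and the median was -3.47 (log2 fold change). The shares over all genes tested were 17.3% lower and 11.3% higher. *Myl2* and *Myl7* are also on the cardiomyocyte list. *Myl2*, *Smpx*, *Myl7* and *Bmp10* fell the most, from -4.46 to -4.29. *Smpx*, a gene switched on together with *Nppa* in the embryonic chambers, had 52.6 and 75.9 normalized counts in WT and 1.96 and 2.21 in the others. *Gja5*, a connexin gene with the same known pattern, had 196 and 69.6 in WT and 183 and 371 in the others, and was not called (log2 fold change 1.15, adjusted p = 0.165 from limma).

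**Figure D4:**
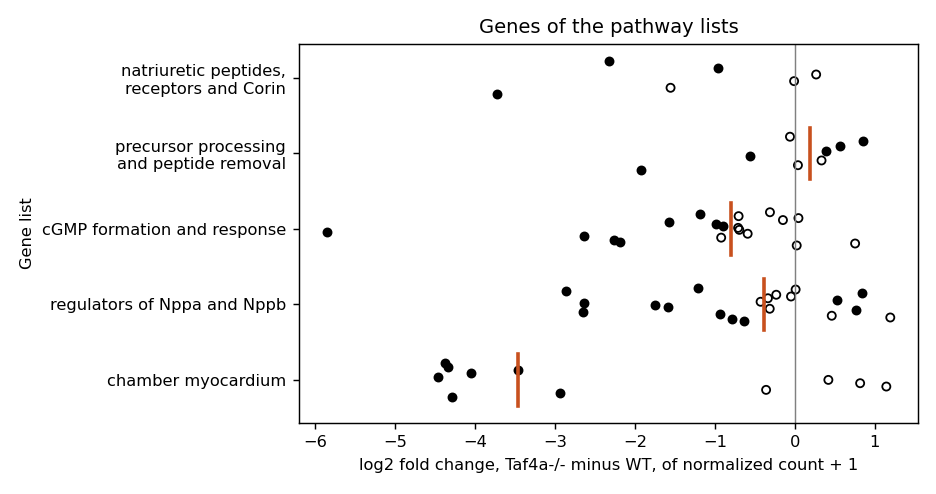
Log2 fold change, libraries labelled Taf4a-/- minus WT, on the scale of normalized count + 1, of the tested genes of 5 lists, with filled points for genes called at an adjusted p-value under 0.05 and an orange bar at the median of each list except the first. The medians are 0.19 for processing, -0.80 for cGMP, -0.38 for regulators and -3.47 for chamber myocardium.

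Some genes around the peptide genes were also read. Within 100 kb of *Nppa* and *Nppb*, *Plod1* and *Agtrap* were called lower. *Plod1* had 2538 and 3680 normalized counts in WT and 1547 and 1613 in the others (log2 fold change -0.95), and *Agtrap* had 1020 and 994 against 609 and 628 (-0.70; adjusted p = 0.0164 and 0.0132 from limma). *Clcn6*, on the other strand with its nearest end 2180 bases beyond *Nppa*, had 1063 and 1088 normalized counts in WT and 919 and 1018 in the others, and was not called. Within 100 kb of *Nppc*, *Pde6d* was lower (-0.87) and *Cops7b* and *Dis3l2* were not called.

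The genes with the most similar profiles over the 4 libraries were found by the Euclidean distance between log2 profiles centred on their own means, which is a description of 4 points only. They were *Slc16a14*, *Syt6* and *Serpina3n* for *Corin* (distances 0.0569 to 0.281), *Olfml2a*, *Zdhhc14* and *Sstr2* for *Npr3* (0.0546 to 0.145), and *Snx21*, *Gm9913* and *Gm10159* for *Npr2* (0.0333 to 0.0443). For *Npr1* they were *2410042D21Rik*, *4932415G12Rik* and *Gm98* (0.0376 to 0.0455), for *Nppa* they were *Syt1*, *Lass1* and *Rap1gap* (0.115 to 0.199), and for *Nppb* they were *Hpca*, *Cldn9* and *Gm16083* (0.286 to 0.336). *Slc16a14* had 51.7 and 97.7 normalized counts in WT and 2.94 and 6.64 in the others. It shared with *Corin* the fall and the higher value in replicate 2 of each genotype, which follows from its choice by profile.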

How the data were processed

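Polyadenylated RNA of 4 cultures was sequenced without strand information. The authors mapped reads to mm9/NCBI37 with Tophat (1.3.3 in the submitters' processing notes, which also list HTSeq 0.5.3p1) and deposited counts per Ensembl gene divided by a size factor from DESeq 2, written with decimal commas. Within 0.001, 100% of the values of each library were whole multiples of the value of 1 read, which gave the reads. All 24637 identifiers were found in GENCODE M1 on NCBIM37, the same build. Labels gave the genotypes. The libraries of a genotype came from independent ESC lines by the paper's methods, while the labels give only replicate numbers. The limma p-values set the difference between genotypes against a variance. That variance combines the spread between the lines with the spread shared across genes (prior degrees of freedom 4.17).

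Values were put on the log2(value + 1) scale, and genes whose mean reached 10 entered lmFit and a trended eBayes (limma 3.58.1, R 4.3.3). Reads were simulated for 16924 genes, all with the same dispersion of 0.019. There it recovered 100% of 100 genes changed 2 log2 units and 71% of 100 genes changed 1 unit. Of its calls, 7.07% were unchanged genes. The other genes were left unchanged, and genes with a larger spread were not simulated, so these rates need not hold for the data. Intervals of reads are exact Poisson and cover counting error only. The members, lists and tests were chosen with earlier results of these data known. Named genes are the 7 genes, *Taf4a*, up to 4 called genes with the largest fall and up to 4 with the largest rise of each pathway list, neighbours within 100 kb and the 3 nearest profiles. A few items that this rule or the family comparison would give are not reported here. Of the cell type lists, the rule names only markers at 0. *Pcsk6*, *Prkg1*, *Gata4*, *Tead1*, *Srf*, *Gja5*, *Tnnc1* and *Gm13054* were added after their values were seen. Genes named from the endothelial and chondrocyte lists also fall outside the rule and were named with their values known. *Ostn*, *Gucy2d*, *Adgre1*, *Map2* and *Sox1* were not found by these symbols. Figures were drawn with matplotlib 3.10.9.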

Additional observations from a re-analysis of the deposited data

How the results depend on the processing

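*Corin*, *Npr3* and *Npr2* stayed lower and past the threshold under every alternative run, and *Npr1* was called under none. The number of these genes called lower ran from 3 to 4 with each library left out, *Nppa* being the fourth without WT replicate 1 (-2.05). The cause was not tested, and the 7 to 41 reads of *Nppa* limit its precision. *Nppb*, never called, turned sign to 0.052 with equal totals, 0.34 with quantile normalization and 0.076 with voom, and ran from -0.83 to 0.82 with each library left out. Quantile normalization moved the median of all genes from -0.01 to 0.11.

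Over all genes, 1906 were called higher and 2928 lower, against 856 and 1741 when the trend in variance was dropped, 331 and 1119 at a threshold of 0.01, 2903 higher at a threshold of 0.1, and 2676 and 2448 with quantile normalization. With each library left out, 600 to 2558 were higher (600 without *Taf4a*-/- replicate 1, 649 without *Taf4a*-/- replicate 2, 928 without WT replicate 2) and 1453 to 3106 lower (1453 without WT replicate 2), the lone library being assumed to vary like the others. A replicate block left 1536 higher and 2657 lower, with no changed call among the 7 genes. Same-numbered deviations had a correlation of 0.01, and the numbers are taken as names. Voom with median-of-ratios factors was chosen after seeing the data, in place of TMM. The planned edgeR and DESeq2 tests were not run.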
